A study of Mus musculus with 24 samples.

Results

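The comparison described here is AML-12 cells in which *Bmal1* and *Chrebp* were silenced together (BOTH) against cells that received a control esiRNA (CON), with 4 libraries in each group and 8 of the 24 libraries of the series. AML-12 is an established line of mouse hepatocytes that was derived from a mouse carrying a human transforming growth factor alpha transgene. An esiRNA is a pool of small interfering RNAs cut by an endoribonuclease from a long double-stranded RNA. CON cells were transfected with 200 nM of an esiRNA against *Egfp*, a gene that mouse cells lack, and BOTH cells with esiRNAs against *Bmal1* and *Chrebp* at a total of 200 nM, so that the total dose was equal. All cells of both groups were also given 0.25 mM palmitate bound to albumin from the day before transfection, in medium without dexamethasone, and were collected 24 hours after transfection. The members were taken from the labels alone, and every gene of the count table was kept except its 5 summary lines. The question behind the comparison was how the transcriptome of palmitate-treated hepatocytes changes when both factors are silenced. The single silencing groups, BMAL1 and CHREBP, had 4 libraries each, palmitate at the same concentration and 100 nM of one esiRNA, and are used only beside the values of BOTH.

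Expression was measured by BRB-seq, in which samples are barcoded early, pooled, and sequenced at the 3′ end of each mRNA. The CON libraries held 6512750 to 11237474 gene counts and the BOTH libraries 6754747 to 8745042, and 14748 to 15644 genes had at least 1 count. The labels did not say that replicates were separate cultures, so *P* values measure the spread between these libraries, which may be technical. The library names placed CON in rows A to D of column 2 and BOTH in rows E to H of column 3, so that library position and esiRNA cannot be told apart in this comparison. Of 5 measures of library quality, the percentage of reads that were not aligned was lower in BOTH (25.6% ± 0.745) than in CON (27.0% ± 0.355; SD, n = 4), and the two-sided exact permutation test gave *P* = 0.0286, the smallest value that 4 against 4 allows, and 0.143 after adjustment over the 5 measures, so it did not pass. The other 4, which were total counts, genes detected, reads without a feature and the mitochondrial share, had *P* values from 0.143 to 0.857 in the same exact test. The hepatocyte genes *Trf*, *Ttr* and *Hnf4a* were detected in all 8 libraries, whereas *Alb*, the gene of serum albumin, had between 121 and 242 counts and *Apoa1* between 2 and 12. The cholangiocyte genes *Sox9* and *Spp1* were also expressed in all 8 libraries. All 6 lymphocyte markers, 5 of 6 endothelial markers, 3 of 6 stellate cell markers and 4 of 8 macrophage markers (*Adgre1*, *Itgam*, *Clec4f* and *Lyz2*) had no count in any of the 8 libraries. Of the other macrophage markers *Cd14* had 479 to 860 counts per library, *Cd68* 8 to 27 and *Csf1r* 1 to 8, and *Ptprc* had 8 or fewer, with no count in 1 library.

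CON replicate 1, BOTH replicate 2 and BOTH replicate 4 stood apart in ways that touch the results. CON replicate 1 was the lowest of the CON libraries for 82 of the 91 interferon-related genes that are called below, and BOTH replicate 2 was the highest of the BOTH libraries for 83 of them. BOTH replicates 2 and 4 were the pair of replicates that differed most, at a chi-square of 24.7 per degree of freedom over genes. BOTH replicate 4 had 1.95% of its counts in mitochondrially encoded genes, against 3.33% to 3.65% in the other BOTH libraries and 3.49% to 3.87% in CON. Values without these libraries are given where they matter.

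*Bmal1*, listed as *Arntl* in the count table, encodes the activator that pairs with CLOCK at E-boxes and drives the *Per* and *Cry* genes, which feed back on it. *Chrebp*, listed as *Mlxipl*, encodes a glucose-sensing activator of glycolytic and lipogenic genes in the liver. A further system bears on any transfection of double-stranded RNA. Cytosolic and endosomal sensors of double-stranded RNA induce interferon beta, its receptor signals through a complex that includes STAT2 and IRF9, and this complex binds the interferon-stimulated response element (ISRE) of target genes, which encode antiviral proteins, antigen presentation components and chemokines.

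Promoters of 6 genes that rose are shown first. They were taken from different roles in the interferon system and chosen after the search because they hold the element, whereas the promoters of *Phf11d* and *Mpeg1*, the largest rises among well-measured genes, held no match. The windows below are RefSeq promoter sequences on GRCm38, the build of mm10, written 5′ to 3′ on the strand of each gene, and each ends before the start site. Capitals mark the ISRE letters, which are GAAA, 2 bases of any kind and GAAA again, or TTTC, 2 bases and TTTC where the element lies on the other strand, and overlapping copies form 1 run. The first 3 genes encode an ubiquitin-like modifier (*Isg15*, chr4:156200840-156200919), an oligoadenylate synthase (*Oas1g*, chr5:120887614-120887660) and the antiviral enzyme viperin (*Rsad2*, chr12:26456528-26456607). The others encode the chemokine CXCL10 (*Cxcl10*, chr5:92349058-92349137), the interferon signal transducer STAT2 (*Stat2*, chr10:128270248-128270320) and beta-2 microglobulin, the light chain of MHC class I (*B2m*, chr2:122147513-122147592). *Stat2* and *B2m* lie on the plus strand and the other 4 on the minus strand.
Isg15: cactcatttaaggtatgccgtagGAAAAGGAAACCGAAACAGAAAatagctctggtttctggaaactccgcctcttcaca
Oas1g: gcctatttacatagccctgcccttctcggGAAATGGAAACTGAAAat
Rsad2: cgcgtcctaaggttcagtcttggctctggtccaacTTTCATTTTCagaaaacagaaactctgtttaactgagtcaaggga
Cxcl10: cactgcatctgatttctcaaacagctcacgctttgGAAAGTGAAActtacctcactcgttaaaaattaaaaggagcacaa
Stat2: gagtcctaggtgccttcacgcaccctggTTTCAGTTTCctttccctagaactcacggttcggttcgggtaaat
B2m: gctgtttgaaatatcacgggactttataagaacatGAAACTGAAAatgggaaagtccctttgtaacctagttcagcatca

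The ISRE letters were searched on both strands of promoters that ran from 250 bases before to 50 after the start site, and 10080 of the tested genes had such a promoter in the table. They were present in 374 of these, or 3.71%. Among genes higher in BOTH they were present in 26 of 451 promoters (5.76%) of genes that rose less than 2-fold, in 34 of 150 (22.7%) of those that rose 2-fold to 8-fold and in 31 of 56 (55.4%) of those that rose at least 8-fold. Genes lower in BOTH held them in 14 of 397 promoters (3.53%), close to the 2.98% of genes that were not called. The GAS letters TTCCNGGAA read the same on both strands. They were in 2.44% of the promoters of genes higher in BOTH and in 1.57% of all promoters of tested genes. In the same 3 classes of rise, GAS was in 8 of 451 (1.77%), 5 of 150 (3.33%) and 3 of 56 promoters (5.36%). Genes lower in BOTH held it in 2 of 397 (0.504%), and these counts are small. These shares describe letters in a fixed window and not bound sites.

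**Figure D1:**
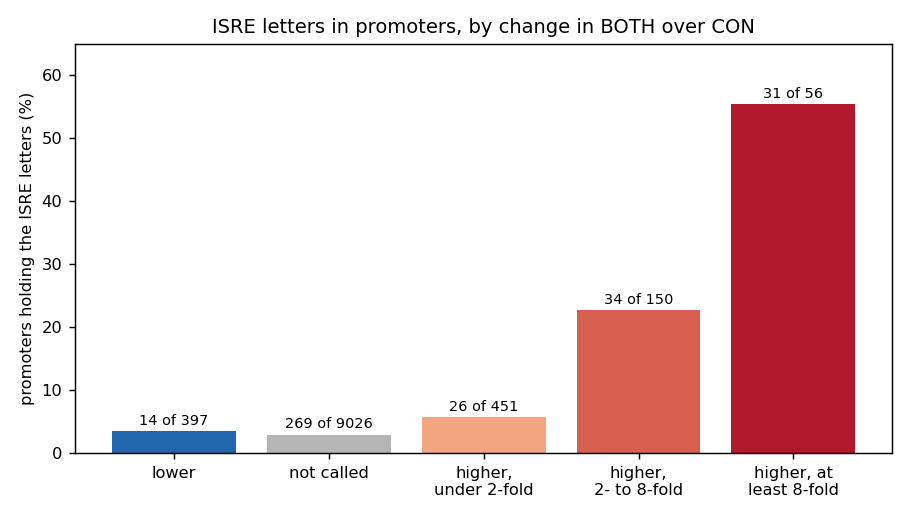
Percentage of promoters (vertical axis) that hold the ISRE letters on either strand, for genes grouped by their change in BOTH over CON (horizontal axis), with the number of promoters above each bar. The share climbs from 5.76% of genes that rose less than 2-fold to 55.4% of those that rose at least 8-fold, and genes that fell are at 3.53%.

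The targeted transcripts were examined next. Normalized counts are counts divided by DESeq2 size factors of the 16 esiRNA libraries. *Arntl* (chromosome 7, 113207465 to 113314126) had normalized counts of 58.2, 50, 42.6 and 30.6 in the CON libraries and 16.8, 31.3, 25.7 and 18.4 in the BOTH libraries. The lowest CON library lay just below the highest BOTH library, so the groups overlapped. *Arntl* fell by 0.98 on the log2 scale (SE 0.28, DESeq2 *Padj* = 0.00994), where *Padj* is the Benjamini-Hochberg adjusted *P* of the Wald test. *Mlxipl* (chromosome 5, 135089890 to 135138382) had 39.1, 30.8, 45.1 and 29.4 in CON and 14.6, 20.6, 22.2 and 11.6 in BOTH, without overlap, and fell by 1.07 (SE 0.30, DESeq2 *Padj* = 0.00762). Both transcripts remained called when any one of the 8 libraries was left out. *Mlxipl* was 1.04 lower on the log2 scale in BOTH than in BMAL1 (DESeq2 *Padj* = 0.0121), and *Arntl* differed by -0.63 between BOTH and CHREBP, a contrast in which DESeq2 gave it no adjusted *P*. The fitted changes are falls of 49.2% for *Arntl* and 52.4% for *Mlxipl*, both at low counts. In the single silencing groups neither target was called lower than in CON. *Mlxipl* had 23.6, 33.2, 22.5 and 25.8 in CHREBP, which overlapped CON, with a change of -0.46 (SE 0.28, DESeq2 *Padj* = 0.593). *Arntl* had 23.4, 22.6, 26.2 and 33.4 in BMAL1, which overlapped CON too, with a change of -0.78 (SE 0.28) and no adjusted *P* from DESeq2. Between BOTH and CHREBP *Mlxipl* differed by -0.61 (SE 0.31), again without an adjusted *P*. In bulk libraries, fewer cells that express a gene and less RNA per cell cannot be told apart.

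The *Chrebp* targets *Txnip*, *Pklr* and *Klf10* were examined in the same fit. *Txnip*, an inhibitor of thioredoxin that limits glucose uptake, had normalized counts of 1796, 1799, 1843 and 1955 in CON and 1948, 2101, 1923 and 2197 in BOTH, and the change was 0.15 on the log2 scale (DESeq2 *Padj* = 0.374). *Pklr*, the liver pyruvate kinase, was at 0.02 and *Klf10*, a Krüppel-like repressor, at -0.10, neither past the test. Of the 11 tested members of the list of *Chrebp* and its targets, 2 fell, which were *Mlxipl* itself and *Slc2a2*, the hepatic glucose transporter (-0.47, SE 0.13, DESeq2 *Padj* = 0.00481). The list median was -0.20, against -0.01 for all genes tested.

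Of 13883 genes tested, 831 (5.99%) were higher and 520 (3.75%) lower in BOTH than in CON at *Padj* < 0.1. The counts called in each list are to be read beside these shares, and several lists with few calls lie near them. The rises were larger than the falls. Among the genes that rose, 262 (1.89% of genes tested) changed at least 2-fold, 142 at least 4-fold and 82 at least 8-fold. Among those that fell, 40 (0.288%) changed at least 2-fold, and of these only *Platr25* had a mean of at least 50 normalized counts and no overlap between the groups. The median log2 fold change was 0.51 over the genes that rose and -0.40 over those that fell. All 4 BOTH libraries were above all 4 CON libraries for 672 of the 831 higher genes, and below them for 379 of the 520 lower genes. Over all genes tested, 6.38% lay above in this way and 4.65% below. The genes that rose held 6.81% to 7.30% of the counts of a CON library and 10.4% to 12.9% of those of a BOTH library. The genes that fell held 7.01% to 7.24% and 5.39% to 6.09%. BOTH replicate 2 was the highest BOTH library for 514 of the 831 genes that rose and the lowest for 205 of the 520 that fell. Without BOTH replicate 4 the counts were 917 higher and 644 lower, and without one CON library they were 694 to 710 and 355 to 378.

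**Figure D2:**
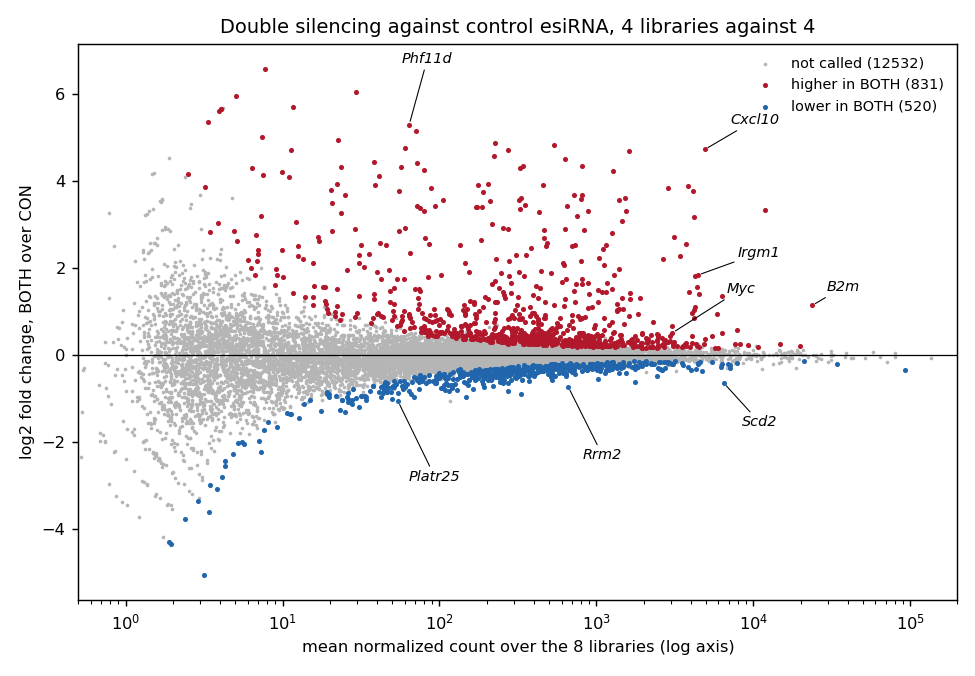
Log2 fold change of BOTH over CON (vertical axis) against the mean normalized count over the 8 libraries (horizontal axis, log scale), 1 point per gene, for the 13883 genes tested. Well-measured genes that rose reach 5.29 (*Phf11d*), whereas the 520 genes that fell lie closer to the zero line except at low counts, with *Platr25* at -1.07.

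The 8 largest rises were taken among called genes with a mean of at least 50 normalized counts over the 8 libraries and no overlap between the groups. *Phf11d*, a PHD finger gene, had normalized counts of 0, 7.53, 3.34 and 1.18 in CON and 73.0, 223, 104 and 101 in BOTH and rose by 5.29 (SE 0.74, DESeq2 *Padj* = 9.95e-11). *Mpeg1*, which encodes the pore-forming protein perforin-2, had 3.64, 4.11, 3.34 and 4.71 in CON and 95.5, 218, 138 and 101 in BOTH (5.14, SE 0.45, DESeq2 *Padj* = 6.28e-27). *Mpeg1* was even across the CON libraries, whereas *Phf11d* had no count in CON replicate 1. With one of the 8 libraries left out, *Phf11d* ran from 4.85 to 6.33 and *Mpeg1* from 4.83 to 5.28. *Cxcl10* (chromosome 5, 92346638 to 92348889), a ligand of the receptor CXCR3, had 55.5, 526, 604 and 246 in CON and 5898, 15861, 9609 and 6525 in BOTH (4.73, SE 0.57, DESeq2 *Padj* = 2.02e-14). *Rsad2* (chromosome 12, 26442746 to 26456452), the gene of viperin, had 10.9, 169, 224 and 74.1 in CON and 2132, 5336, 3289 and 1651 in BOTH (4.70, SE 0.66, DESeq2 *Padj* = 9.19e-11). In both genes CON replicate 1 was the lowest library and BOTH replicate 2 the highest, and the lowest BOTH library was above the highest CON library. The other 4 were *Oas3* (4.87) and *Oas1g* (4.76), 2 oligoadenylate synthases, *Cxcl11* (4.84), a further CXCR3 ligand, and *Iigp1* (4.71), an immunity-related GTPase. GENCODE M21 annotates *Cxcl11* as a polymorphic pseudogene. *Oas1g* has near-identical relatives whose reads the counting may have shared.

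Among genes in none of the lists, the 8 largest rises named by the rule were *Ccrl2* (4.42), an atypical chemokine receptor that binds chemerin, *Ifi207* (4.25), a member of the PYHIN family, *Cd274* (3.83), the gene of PD-L1, *Ly6a* (3.77), the surface antigen Sca-1, *Tor3a* (3.57), a torsin ATPase, *Apol9a* (3.56) and *Apol9b* (3.55), apolipoprotein L genes, and *Trim30d* (3.42), a TRIM gene. *Cd274* had normalized counts of 3.64, 17.1, 17.5 and 7.06 in CON and 108, 273, 149.7 and 130.1 in BOTH (SE 0.46, DESeq2 *Padj* = 2.46e-14). *Tor3a* had 77.3, 277, 325 and 184 in CON and 1938, 3613, 2666 and 2046 in BOTH (SE 0.38, DESeq2 *Padj* = 1.21e-18). Neither gene overlapped between the groups. *Apol9a* and *Apol9b* are near-identical and *Ifi207* and *Trim30d* belong to gene clusters, so these 4 values are uncertain. With one of the 8 libraries left out, *Ly6a* ran from 3.14 to 4.92, *Ifi207* from 3.51 to 5.49 and *Trim30d* from 2.91 to 4.64. Each kept its call.

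The interferon system was followed from ligand to effectors. *Ifnb1*, the gene of interferon beta, which was chosen after its values were seen, had normalized counts of 0, 2.74, 0.835 and 0 in CON and 10.1, 33.1, 14.03 and 18.4 in BOTH. It rose by 4.21 on the log2 scale (SE 0.90, DESeq2 *Padj* = 0.000101), and no BOTH library was as low as a CON library. Its counts were low, and it was called in 5 of the 8 fits that left out a library. Of the 17 RNA sensors and adaptors tested, 10 rose and none fell, with a list median of 1.15. *Adar*, the RNA-editing deaminase, had 254, 403, 473 and 309.5 in CON and 960.3, 1306, 1098 and 1138 in BOTH (1.64, SE 0.15, DESeq2 *Padj* = 2.08e-24). *Ifih1*, which encodes the double-stranded RNA sensor MDA5, had 67.3, 151, 168 and 112 in CON and 713, 1203, 870.0 and 442 in BOTH (2.69, SE 0.32, DESeq2 *Padj* = 9.41e-15). *Rnf135*, a ubiquitin ligase of the RIG-I pathway, rose by 1.15. Of the 7 members that did not pass the test, *Cgas*, a DNA sensor, was at 0.68, and the adaptors and kinases *Mavs* (0.13), *Sting1* (0.10), *Tbk1* (0.21), *Ikbke* (0.02) and *Ticam1* (0.03) and the factor *Irf3* (-0.13) were nearer to 0. The last 7 genes were not named by the rule and show the members without a call.

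Of the 19 interferon receptors, STATs and IRFs tested, a list that includes *Ifnb1*, 10 rose and none fell, with a median of 0.36. *Stat2* (chromosome 10, 128270559 to 128292849) had normalized counts of 195, 437, 402 and 340.1 in CON and 1509.6, 2120.1, 2084 and 1667 in BOTH (2.42, SE 0.23, DESeq2 *Padj* = 9.42e-23). *Irf1*, an interferon-inducible activator, had 689, 915, 971 and 773 in CON and 1904, 2481, 2178 and 1755 in BOTH (1.31, SE 0.13, DESeq2 *Padj* = 2.39e-22), and *Socs1*, a feedback inhibitor of JAK kinases, rose by 2.11. The receptor genes *Ifnar1* (-0.17), *Ifnar2* (0.20), *Ifngr1* (0.15) and *Ifngr2* (-0.14) did not pass the test, nor did the kinases *Jak1* (0.05) and *Tyk2* (0.21).

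Of the 36 antiviral effectors tested, 35 rose and none fell, with a median of 2.95. *Slfn2*, a Schlafen family gene, had 452, 572, 631 and 617 in CON and 1384, 2077, 1735 and 1915 in BOTH (1.65, SE 0.14, DESeq2 *Padj* = 2.81e-29). *Zc3hav1*, which encodes the zinc finger antiviral protein, rose by 1.51 and *Dtx3l*, a ubiquitin ligase partner of PARP9, by 2.58. These 3 were named for the lowest *Padj* and not for the largest change.

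Of 6 members of the ISG15 conjugation system 5 rose, with a median of 3.52. *Isg15* had 0, 3.42, 8.35 and 1.18 in CON and 57.3, 97.6, 62.0 and 77.7 in BOTH (4.44, SE 0.52, DESeq2 *Padj* = 3.11e-15), and the enzymes that attach it, *Uba7* and *Ube2l6*, rose by 2.31 and 3.59. The change of *Isg15* ran from 4.04 to 5.43 with one of the 8 libraries left out. The 13 interferon-induced GTPases tested all rose, with a median of 3.40. *Irgm1*, an immunity-related GTPase, had 1254, 2247, 2325 and 1950.2 in CON and 5669.9, 7619, 7265 and 7218 in BOTH (1.84, SE 0.18, DESeq2 *Padj* = 7.6e-22). *Ifi47* rose by 2.28 and *Irgm2*, which overlaps *Igtp* on the same strand, by 2.45.

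Of the 19 MHC class I presentation genes tested, 18 rose and none fell, with a median of 2.06. *B2m* had normalized counts of 12516, 15672, 16090.1 and 15080.4 in CON and 26128, 37724, 33335 and 33478 in BOTH (1.14, SE 0.10, DESeq2 *Padj* = 4.92e-25). *Psmb10*, a subunit of the immunoproteasome, had 337, 479, 503 and 426 in CON and 1579, 2195, 1736 and 1758 in BOTH (2.06, SE 0.18, DESeq2 *Padj* = 1.37e-26), and *H2-D1*, a class I heavy chain with close relatives, rose by 1.44. The lowest BOTH library was above the highest CON library for all 3. Over these 6 lists of interferon-related genes, 91 of 110 tested genes (82.7%) rose and none fell, with a median log2 fold change of 2.47. Together their transcripts made up 0.5002, 0.769, 0.782 and 0.639 percent of the gene counts in CON and 1.98, 3.07, 2.53 and 2.13 percent in BOTH. Without CON replicate 1, the lowest of these, 90 of the 110 were called higher, and without BOTH replicate 4 91 were, while 2 genes of the receptor, STAT and IRF list were then called lower. Whichever of the 8 libraries was left out, BOTH replicate 2 included, the number called higher moved by at most 1 in each of the 6 lists. All 6 lymphocyte markers and 4 of the 8 macrophage markers were at 0 in both groups, and none of the other 4 macrophage markers was called.

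Of 13 chemokine genes tested, 6 rose and 1 fell, and 3 were called lower without BOTH replicate 4. Besides *Cxcl10* and *Cxcl11*, *Cxcl9* rose by 3.57 and *Ccl5*, a T cell attractant, rose from 31.8, 79.5, 62.6 and 63.6 in CON to 385, 613, 428 and 368 in BOTH (2.91, SE 0.31, DESeq2 *Padj* = 5.87e-19). The other rises were *Ccl2* (0.57) and *Ccl7* (0.47), monocyte attractants, and the fall was *Ccl9* (-0.52), and these 3 were named after their values were seen. The neutrophil attractants *Cxcl1* (0.02), *Cxcl2* (0.86) and *Cxcl5* (-0.24) did not pass the test.

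Of 18 NF-kB subunits and feedback genes tested, 6 rose and none fell, with a median of 0.21. *Nfkb1*, a subunit, had 856, 831, 842 and 847 in CON and 970.4, 1120.0, 1028 and 1067 in BOTH (0.31, SE 0.07, DESeq2 *Padj* = 0.000181). *Tnfaip3*, which encodes the feedback inhibitor A20, rose by 0.34 and *Rela*, a further subunit, by 0.23. The groups did not overlap, but the changes were far smaller than in the interferon lists. Leaving out one library left 4 to 7 members called.

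Of 21 cell death genes tested, 9 rose and 2 fell, with a median of 0.17. *Mlkl*, the pore-forming effector of necroptosis, had 116, 155, 137 and 145 in CON and 340.3, 544, 461 and 394 in BOTH (1.65, SE 0.17, DESeq2 *Padj* = 8.47e-21). *Tnfsf10*, the death ligand TRAIL, rose by 4.33. *Casp8* (0.10), *Ripk1* (0.16) and *Ripk3* (-0.11) did not pass the test. Without CON replicate 1, 5 members were called higher, and without BOTH replicate 2 1 was called lower. Of 16 acute phase and complement genes tested, 6 rose and none fell, with a median of 0.40, and 1 was called lower by edgeR, with the replicate block, and without CON replicate 1 or 4. *C4b*, a complement component, had 324, 401, 441 and 393 in CON and 785, 1004, 889.8 and 747 in BOTH (1.14, SE 0.13, DESeq2 *Padj* = 7.75e-17), and *C2* and *Cfb*, neighbouring complement genes, rose by 0.84 and 0.75. *Lcn2*, a neutrophil-type acute phase gene named after its value was seen, was at -1.05 and did not pass the test (DESeq2 *Padj* = 0.118).

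**Figure D3:**
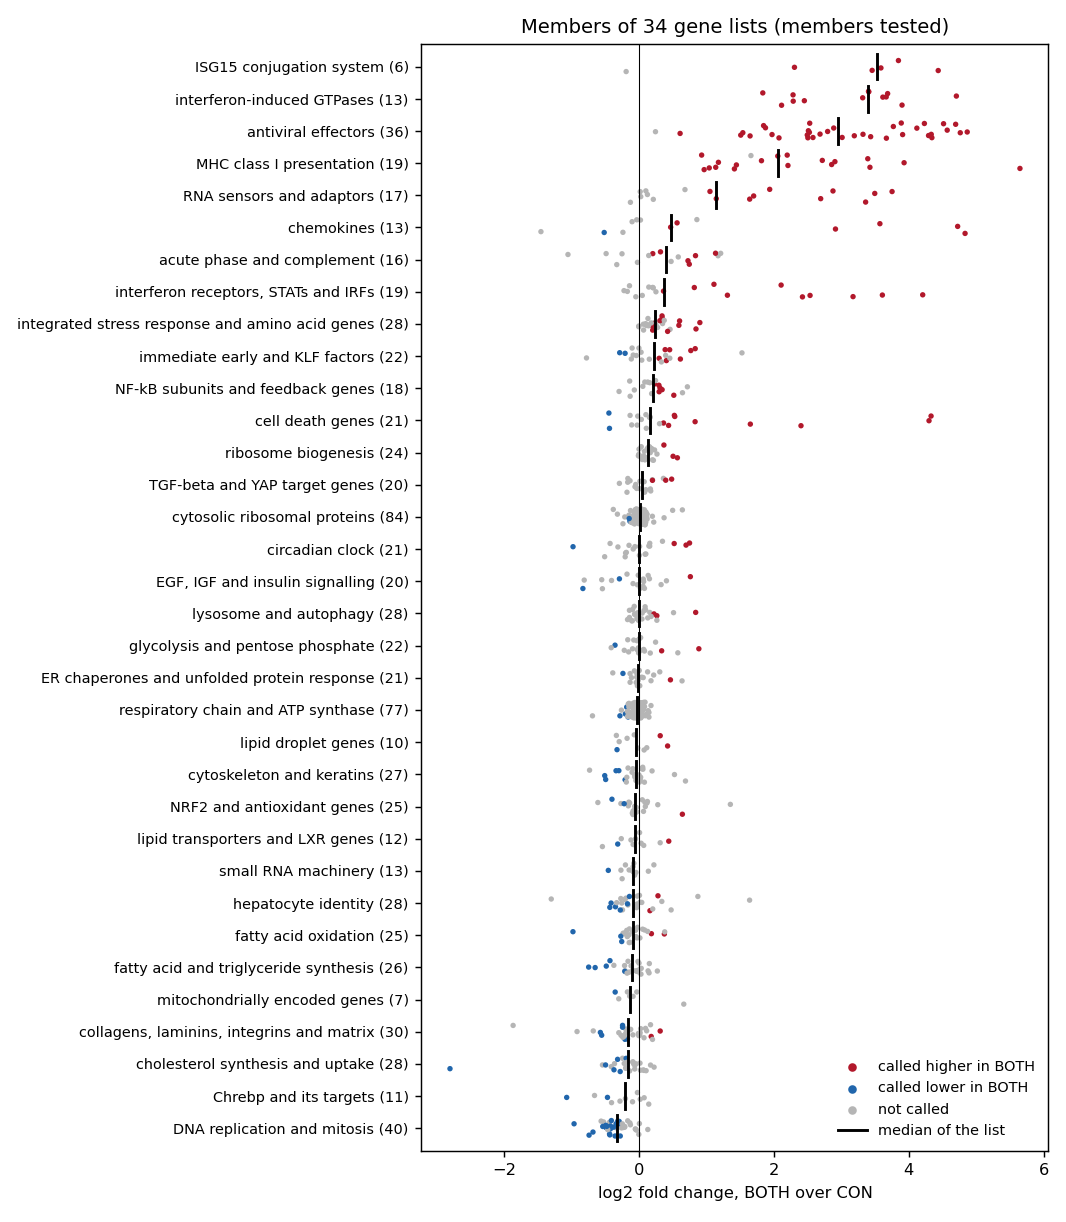
Log2 fold change of BOTH over CON (horizontal axis) for each tested member of 34 gene lists (vertical axis, ordered by median, with the number tested), where red points were called higher, blue points lower and grey points neither, and black bars are list medians. The 6 interferon-related lists have medians from 0.36 to 3.52, and DNA replication and mitosis lies at the bottom with a median of -0.32.

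Beyond immunity, 11 of 28 tested genes of the integrated stress response and amino acid metabolism rose and none fell, with a median of 0.23. This pathway halts general translation and induces ATF4 and CHOP. *Atf3*, a stress-induced repressor, had 525, 496, 546 and 564 in CON and 846, 1173, 1035 and 926 in BOTH (0.90, SE 0.13, DESeq2 *Padj* = 5.62e-10). *Ddit3* (chromosome 10, 127290774 to 127296288), the gene of CHOP, had 129, 121, 129 and 111 in CON and 220.1, 221, 251 and 191 in BOTH (0.85, SE 0.13, DESeq2 *Padj* = 1.39e-08). *Cebpb*, a CHOP partner, rose by 0.42. No CON library reached a BOTH library in these 3 genes, and 7 members were called without CON replicate 3. The summed level of the list was 4097 CPM ± 45.4 in CON and 4570 CPM ± 66.0 in BOTH (gene counts of the list scaled to a common library total, SD, n = 4). Of 21 genes of ER chaperones and the unfolded protein response, 1 rose, *Syvn1* (0.47), a ubiquitin ligase of ER-associated degradation, and 1 fell, *Hsp90b1* (-0.24), an ER chaperone whose call was kept in 2 of the 8 fits that left out a library. The list median was -0.01, and 2 were called higher without CON replicate 1 or BOTH replicate 1.

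The promoter of *Atf3* held the CHOP-ATF4 letters TGATGCAA in reverse complement, TTGCATCA, shown in capitals in the window chr1:191183401-191183478 of GRCm38, which is written on the minus strand.
Atf3: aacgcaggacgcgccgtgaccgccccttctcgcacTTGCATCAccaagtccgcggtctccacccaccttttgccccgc
These letters were in 3 of 23 promoters (13%) of the stress response list and in 0.694% of the promoters of all genes tested. Among genes higher in BOTH they were in 1.37% of promoters, and in 0.485% of those that rose at least 2-fold. The 13% describes the list and not the genes that rose.

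Of 22 immediate early and KLF factors tested, 7 rose and 2 fell, with a median of 0.23. *Dusp5*, a nuclear ERK phosphatase, had 359, 314, 313 and 265 in CON and 539, 546, 552 and 502 in BOTH (0.77, SE 0.10, DESeq2 *Padj* = 1.74e-13). *Egr1*, a growth factor-induced activator, rose by 0.61 and *Klf6* by 0.39, whereas *Klf5* (-0.29) and *Klf13* (-0.21) fell and were named after their values were seen. Only 1 of the list was called lower without CON replicate 1, 2 or 4 or BOTH replicate 1 or 2. Of 24 ribosome biogenesis genes 3 rose and none fell, with a median of 0.14. *Myc*, an activator of ribosome production, had 2354, 2554, 2664 and 2498 in CON and 3163, 3693, 3709 and 3733 in BOTH (0.51, SE 0.06, DESeq2 *Padj* = 6.58e-15), and *Wdr43* and *Rrp12*, which process ribosomal RNA, rose by 0.57 and 0.37. *Wdr43* overlapped between the groups, *Rrp12* was called in 2 of the 8 fits that left out a library, and 5 of the list were called without BOTH replicate 4. Among 20 TGF-beta and YAP target genes 3 rose and none fell, with a median of 0.05, which were *Ankrd1* (0.48), *Ccn1* (0.40) and *Amotl2* (0.20), all YAP targets, the last called in 4 of the 8 fits that left out a library, and 1 of the list was called lower without CON replicate 2, BOTH replicate 3 or BOTH replicate 4. *Ccn2*, a YAP target too, was at 0.01.

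Of 28 lysosome and autophagy genes 3 rose and none fell, while the list median was at -0.0014. *Grn*, the gene of progranulin, had 2824, 3121, 3179.9 and 2954 in CON and 5167, 6329.9, 5320.3 and 4822 in BOTH (0.84, SE 0.09, DESeq2 *Padj* = 6.14e-18), with *Lamp2*, a lysosomal membrane protein, at 0.27 and *Psap*, a saposin precursor, at 0.22 and called in 5 of the 8 fits that left out a library, and 5 of the list were called higher without BOTH replicate 2. Of 25 NRF2 and antioxidant genes, 1 rose and 2 fell, with a median of -0.05. Over all genes tested, 5.99% rose and 3.75% fell, so these counts are not read as a change of the list. *Keap1*, which keeps NRF2 low, rose by 0.64 (SE 0.10, DESeq2 *Padj* = 4.12e-09), and *Gsta4*, a glutathione transferase, and *Ftl1*, ferritin light chain, were called at -0.40 and -0.22, the latter in 4 of the 8 fits that left out a library. In this list 5 were called lower without BOTH replicate 4 and 1 without CON replicate 3 or 4 or BOTH replicate 2 or 3. Among 20 EGF, IGF and insulin signalling genes, *Btc*, the EGF receptor ligand betacellulin, rose by 0.76, and the IGF-binding protein genes *Igfbp4* (-0.29) and *Igfbp3* (-0.83) fell, the latter with overlapping groups and called in 3 of the 8 fits that left out a library. In this list 2 were called higher without BOTH replicate 1 or 4, and 1 lower without CON replicate 2, 3 or 4 or BOTH replicate 1 or 2.

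In the clock, 3 of 21 tested genes rose and 1, *Arntl*, fell, and the list median was 0.01. *Nfil3*, a repressor of D-box genes, had 246, 245, 264 and 237 in CON and 358, 352, 331 and 384 in BOTH, all 4 BOTH libraries above all 4 CON libraries (0.52, SE 0.10, DESeq2 *Padj* = 2.24e-05). *Per1*, a repressor of the clock that is also an immediate early gene, had 51.8, 41.8, 37.6 and 37.7 in CON and 62.9, 100.3, 59.6 and 60.2 in BOTH (0.75, SE 0.25, DESeq2 *Padj* = 0.0362) and was called in 5 of the 8 fits that left out a library. The third was *Cry1* (0.70), named after its value was seen. Without CON replicate 3 or BOTH replicate 2, 1 clock gene was called higher, and 2 were called lower without CON replicate 3 or 4 or BOTH replicate 1 or 2. The E-box output genes *Dbp* (-0.51), *Tef* (-0.31), *Nr1d1* (0.35), *Nr1d2* (-0.20) and *Per2* (0.09) did not pass the test.

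Among the genes that fell, the DNA replication and mitosis list held more called members than any other list. The 12 largest falls among well-measured genes without overlap, of which 11 are named here, ran from -1.07 to -0.79 on the log2 scale. *Platr25* had normalized counts of 97.3, 67.1, 64.3 and 65.9 in CON and 33.7, 41.2, 47.9 and 18.4 in BOTH (-1.07, SE 0.26, DESeq2 *Padj* = 0.000862), and overlaps 2 other annotated genes on its strand. Of the 12, 4 act in DNA replication, entry into it or chromosome segregation. These roles were assigned after the values were seen, and *Pclaf* and *Spc25* are not in the DNA replication and mitosis list. *Ccne1* (chromosome 7, 38097984 to 38107534), the gene of cyclin E1, had 101, 81.5, 95.2 and 83.6 in CON and 51.7, 34.02, 39.8 and 60.2 in BOTH (-0.96, SE 0.21, DESeq2 *Padj* = 0.000114). *Pclaf*, a partner of the replication clamp PCNA that overlaps *Trip4* on the other strand, had 407, 462, 449 and 412 in CON and 209, 217, 186 and 322 in BOTH (-0.89, SE 0.15, DESeq2 *Padj* = 4.1e-07). *Ncapg*, a condensin subunit, fell by 0.89 and *Spc25*, a kinetochore subunit, by 0.82. The rest were *Zfp354a* (-0.87), a zinc finger gene, *Hook1* (-0.84), an adaptor of microtubule motors, *Kitl* (-0.83), the ligand of the receptor KIT, *Ucp2* (-0.80), a mitochondrial carrier, *Tmem184c* (-0.79), a membrane protein, and *Upp2* (-0.79), a uridine phosphorylase. In BOTH replicate 4 *Kitl* stood at 82.5 and *Hook1* at 15.5, below the other BOTH libraries at 202 to 265 and 53.7 to 58.5. Without that library *Hook1* changed by -0.55 and *Kitl* by -0.57 on the log2 scale.

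Of the 40 genes of DNA replication and mitosis tested, 21 fell and none rose. The list median was -0.32, and 38 of the 40 estimates were negative. *Rrm2* (chromosome 12, 24708241 to 24714146), the regulated subunit of ribonucleotide reductase, had 857, 814, 809 and 837 in CON and 478, 398, 513 and 597 in BOTH (-0.74, SE 0.10, DESeq2 *Padj* = 7.12e-11). *Ccnb2*, the gene of cyclin B2, had 793, 661, 758 and 729 in CON and 636, 500.5, 548 and 509.7 in BOTH (-0.42, SE 0.10, DESeq2 *Padj* = 0.000551). Every CON library was above every BOTH library in both genes, and 19 of the 40 list members did not overlap in that direction. The falls covered the S phase enzymes *Tyms* (-0.43) and *Rrm1* (-0.29), the replicative helicase genes *Mcm5* (-0.49), *Mcm4* (-0.28) and *Mcm7* (-0.25), and mitotic genes such as *Aurka* (-0.68), *Kif11* (-0.54) and *Top2a* (-0.44), which are listed for completeness and not by the naming rule. *Ccnd1* (-0.13), *Pcna* (-0.05) and *E2f1* (-0.0019) did not pass the test. The summed level of the list was 3687 CPM ± 96.8 in CON and 3087 CPM ± 136 in BOTH (SD, n = 4). Leaving out one library at a time left 16 to 24 members called, with 17 without CON replicate 1 and 24 without BOTH replicate 4.

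**Figure D4:**
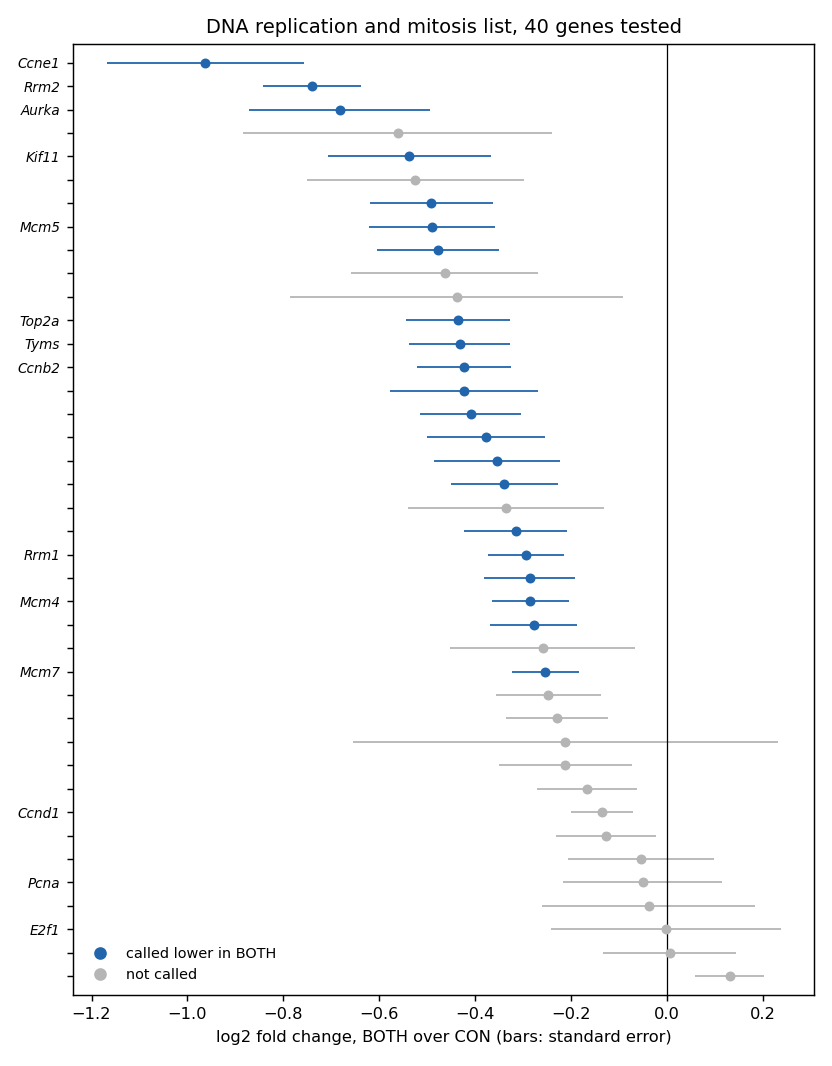
Log2 fold change of BOTH over CON with its standard error (horizontal axis) for the 40 tested genes of the DNA replication and mitosis list (vertical axis, ordered by size, with the genes named in the text labelled), where blue points were called lower and grey points were not called. The 21 genes called run from -0.96 for *Ccne1* to -0.25 for *Mcm7*, and 38 of the 40 estimates are below 0.

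The E2F letters TTTGGCGC or their reverse complement GCGCCAAA were in 5 of 29 promoters (17.2%) of this list, in 0.756% of the promoters of all genes lower in BOTH and in 1.16% of those of all genes tested. The promoter of *Mcm5*, chosen after its value was seen, is shown as the example (chr8:75109325-75109402 of GRCm38, plus strand), with the E2F letters in capitals.
Mcm5: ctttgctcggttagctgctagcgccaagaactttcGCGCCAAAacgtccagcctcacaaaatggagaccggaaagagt

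Lipid synthesis genes fell in part. Of 28 genes of cholesterol synthesis and uptake, 6 fell and none rose, with a median of -0.16. *Msmo1*, a sterol oxidase, had 924, 999, 927 and 984 in CON and 860.4, 664, 712 and 844 in BOTH (-0.32, SE 0.09, DESeq2 *Padj* = 0.00945). *Hmgcs1*, the cytosolic HMG-CoA synthase at the start of the pathway, had 676, 664, 637 and 752 in CON and 559, 611, 585 and 491 in BOTH (-0.28, SE 0.08, DESeq2 *Padj* = 0.0178), and was called in 7 of the 8 fits that left out a library. *Ebp*, a sterol isomerase, fell by 0.19. The groups did not overlap for these 3. The others were *Mvk* (-0.50), mevalonate kinase, *Cyp51* (-0.37), a sterol demethylase, and *Idi1*, an isomerase, which had 4.55, 5.48, 5.01 and 14.1 in CON and 1.12, 0.895, 0 and 1.94 in BOTH, too few counts to size the change, and called in 1 of the 8 fits that left out a library. *Srebf2* (0.17), an activator of sterol synthesis genes, did not pass the test. The summed level was 1990 CPM ± 45.8 in CON and 1775 CPM ± 108 in BOTH (SD, n = 4), and 3 to 8 members were called when one library was left out (3 without CON replicate 4 or BOTH replicate 2, 8 without BOTH replicate 4, where 1 was also called higher).

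The promoter of *Hmgcs1* held the sterol response letters TCACNCCAC, in capitals in the window chr13:119690179-119690257 of GRCm38 on the plus strand. They were in 2.52% of the promoters of genes lower in BOTH, in 1.41% of those of all genes tested and in 1 of 20 (5%) of those of the cholesterol list.
Hmgcs1: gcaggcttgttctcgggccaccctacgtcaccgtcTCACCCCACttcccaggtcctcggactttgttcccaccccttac

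Of 26 genes of fatty acid and triglyceride synthesis, 5 fell and none rose, with a median of -0.11, and the falls were in desaturation, elongation and activation. *Scd2* (chromosome 19, 44293674 to 44306864), a stearoyl-CoA desaturase, had 8496, 7895, 7588 and 7771 in CON and 5409, 4411, 4743 and 5675 in BOTH (-0.65, SE 0.08, DESeq2 *Padj* = 9.41e-15). *Elovl6*, the elongase of palmitate, had 256, 286, 209.7 and 214 in CON and 162, 162, 169.5 and 85.4 in BOTH (-0.75, SE 0.17, DESeq2 *Padj* = 0.000282). *Acsl3*, an acyl-CoA synthetase, fell by 0.48, *Scd1* by 0.43 and *Fads1*, a desaturase, by 0.21, and the last 2 were named after their values were seen. In *Elovl6* BOTH replicate 4 was the lowest library by far, and the change without it was -0.56. *Acly* (-0.0073), *Acaca* (-0.01) and *Fasn* (-0.14), the enzymes of palmitate synthesis, did not pass the test. The summed level was 4238 CPM ± 106 in CON and 3606 CPM ± 223 in BOTH (SD, n = 4), and 3 to 9 members were called when one library was left out, 9 of them without BOTH replicate 4, where 1 was also called higher, and 3 without CON replicate 3 or BOTH replicate 2. Of 25 fatty acid oxidation genes, 2 rose and 3 fell, with a median of -0.10. *Acadm*, the medium-chain dehydrogenase, fell by 0.26, whereas *Acaa1a*, a peroxisomal thiolase, rose by 0.38. *Cpt1a* was at 0.01. Without BOTH replicate 4, 5 of this list were called lower.

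Among 10 lipid droplet genes 2 rose and 1 fell, with a median of -0.04. *G0s2*, an inhibitor of adipose triglyceride lipase, had 629, 534, 546 and 534 in CON and 477, 417, 427 and 469.9 in BOTH (-0.33, SE 0.08, DESeq2 *Padj* = 0.00155), and *Pnpla2*, that lipase, and its co-activator *Abhd5* rose by 0.42 and 0.32, both with overlapping groups. *Pnpla2* was called in 6 and *Abhd5* in 3 of the 8 fits that left out a library, and 1 member was called higher without any one library except BOTH replicate 1, and 2 lower without BOTH replicate 4. *Plin2*, the main droplet coat gene, was at 0.12. Of 12 lipid transporters and LXR genes, *Npc2*, a lysosomal cholesterol carrier, rose by 0.44 and *Apoe* fell by 0.31 with overlapping groups, a call lost without CON replicate 1, CON replicate 4 or BOTH replicate 2, and the median was -0.06. Of 22 genes of glycolysis and the pentose phosphate pathway, *Pfkp*, a phosphofructokinase, and *Hk1*, a hexokinase, rose by 0.89 and 0.34, *Pfkm* fell by 0.35, and the median was -0.0019. No member was called lower without CON replicate 4 or BOTH replicate 2, and 2 were without BOTH replicate 4.

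Of 28 hepatocyte identity genes 6 fell and 2 rose, with a median of -0.09. *Trf*, the gene of transferrin, had 6963, 6323, 7134 and 7061 in CON and 5397, 5143, 5860.5 and 6279 in BOTH (-0.28, SE 0.07, DESeq2 *Padj* = 0.00234). *Serpina1b*, an alpha-1 antitrypsin gene with near-identical relatives, fell by 0.41, *Hnf4a*, the hepatocyte nuclear receptor, by 0.17, while the liver regulator *Foxa2* (0.28) rose and was called in 6 of the 8 fits that left out a library. In the cholangiocyte marker list 1 of 5 tested members was called higher in BOTH, and none was called by edgeR, with the replicate block, in the pair of groups alone, or without CON replicate 1, 2 or 3 or BOTH replicate 1 or 4. Of 30 collagens, laminins, integrins and other matrix genes 6 fell and 2 rose, with a median of -0.16. *Lamb3*, a laminin chain that overlaps *G0s2* on the other strand, had 229, 275, 257 and 211 in CON and 179, 141, 157 and 182 in BOTH (-0.57, SE 0.12, DESeq2 *Padj* = 6.08e-05), *Col12a1* fell by 0.24 and *Fn1*, fibronectin, rose by 0.18. Of 27 cytoskeleton and keratin genes 5 fell and none rose, with a median of -0.05. *Krt7*, a ductal keratin, had 427, 434, 415 and 439 in CON and 339, 244, 306 and 332 in BOTH (-0.49, SE 0.11, DESeq2 *Padj* = 0.000281), and *Krt19* and *Tuba1a* fell by 0.34 and 0.30. In the hepatocyte list 3 were called lower without CON replicate 3 or BOTH replicate 1 and 2 without BOTH replicate 2, in the matrix list 3 without CON replicate 2 and 2 without CON replicate 3, and in the keratin list 3 without CON replicate 2 and 9 without BOTH replicate 4. The hepatocyte list had 2 called higher without CON replicate 4 or BOTH replicate 3 and 1 or none without each of the others, the matrix list 2 without BOTH replicate 1 or 4 and 1 without each of the others, and the keratin list 2 without BOTH replicate 2. The hepatocyte keratins *Krt8* (0.0073) and *Krt18* (0.00073) did not pass the test.

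The large housekeeping lists moved little. Of 77 respiratory chain and ATP synthase genes 4 fell and none rose, with a median of -0.03, of which *Atp5h* (-0.28), *Atp5g3* (-0.20) and *Ndufa6* (-0.16) had the lowest *Padj*. In that list 8 were called lower without BOTH replicate 4 and 2 without any one of the other libraries except CON replicate 2, and 2 were called higher without BOTH replicate 3. *Ndufa6* was called in 2 of the 8 fits that left out a library. Of 84 cytosolic ribosomal protein genes 2 fell, *Rpl24* (-0.15) and *Rps14* (-0.13), both with overlapping groups, and the median was 0.01. *Rpl24* was called in 2 and *Rps14* in 1 of the 8 fits that left out a library, and edgeR and the pair of groups alone called neither. None of this list was called lower without CON replicate 2, CON replicate 3 or BOTH replicate 2, 1 was without BOTH replicate 1 and 4 were without BOTH replicate 4, while 2 were called higher without BOTH replicate 2. Of 7 mitochondrially encoded genes 1 was called, *mt-Nd1*, with 109921, 105687, 109465 and 92128 in CON and 107417, 84509.6, 78917 and 55894 in BOTH (-0.35, SE 0.12, DESeq2 *Padj* = 0.0495). The lowest value was in BOTH replicate 4, and the call was kept in 2 of the 8 fits that left out a library. Of 13 genes of the small RNA machinery, *Ago1*, an Argonaute gene, fell from 316, 292, 259.8 and 232 in CON to 188, 175, 223 and 219 in BOTH (-0.45, SE 0.13, DESeq2 *Padj* = 0.0064), whereas *Ago2* (-0.06) and *Dicer1* (0.22) did not pass the test and 2 of the list were called lower without BOTH replicate 2. No tested macrophage marker (4 genes) or stellate marker (1 gene) was called, and the members with the lowest unadjusted *P* were *Csf1r* (-0.88), the macrophage growth factor receptor, and *Des* (0.01), the gene of desmin, both at very low counts.

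The single silencing groups were set beside BOTH for the same genes. These contrasts share the CON libraries, so the values are given without a test of their likeness. Against CON, 368 genes (2.65%) were higher and 107 (0.771%) lower in CHREBP, and 23 (0.166%) were higher and 45 (0.324%) lower in BMAL1. Over the 110 interferon-related genes the median log2 fold change against CON was 2.47 in BOTH, 1.75 in CHREBP and -0.64 in BMAL1, and their transcripts made up 1.62% ± 0.383 of the counts in CHREBP and 0.534% ± 0.0167 in BMAL1 (SD, n = 4), against 2.43% ± 0.488 in BOTH and 0.672% ± 0.132 in CON. For *Cxcl10* the normalized counts were 7334, 3763, 3229 and 2449 in CHREBP and 110.1, 111, 104 and 131 in BMAL1. The CHREBP libraries lay between CON and BOTH except for CHREBP replicate 1, which was above the lowest BOTH libraries. Over the DNA replication and mitosis list the medians were -0.32 in BOTH, -0.23 in CHREBP and -0.13 in BMAL1, with 21, 5 and 0 members called lower. In *Rrm2* the normalized counts were 535, 553, 555 and 660.4 in CHREBP and 629, 710.1, 729 and 769.6 in BMAL1. For *Scd2* they were 5090.2, 6148, 6061 and 5800.0 in CHREBP and 7693, 8205, 7806 and 7714 in BMAL1, so that the CHREBP libraries stood below the CON range and overlapped BOTH, and the BMAL1 libraries lay within the CON range.

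**Figure D5:**
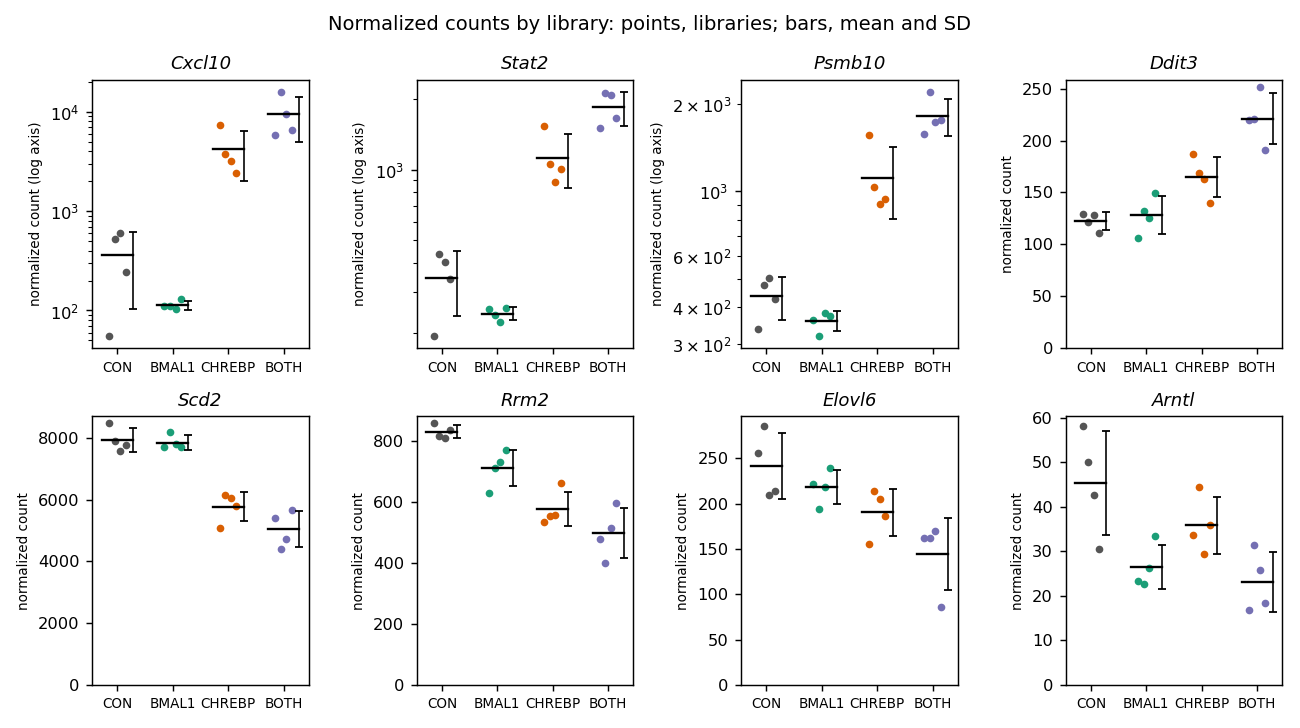
Normalized counts of 8 genes in the CON, BMAL1, CHREBP and BOTH libraries (4 points per group, with the mean as a bar and the SD as a whisker), on log axes for *Cxcl10*, *Stat2* and *Psmb10* and on axes from 0 for the others. The mean of BOTH lies farthest from that of CON in each of the 8 panels, with *Arntl* at a mean of 23.1 in BOTH against 45.4 in CON.

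Whether BOTH differed from CHREBP was tested directly, with the limits that the total esiRNA was 200 nM against 100 nM, that the library rows differed and that *Mlxipl* was not called lower in CHREBP. In this contrast 117 genes (0.843%) were higher and 21 (0.151%) lower in BOTH. Of the 74 genes named by the rule and called higher against CON, 17 were higher than in CHREBP too. None of the 46 named by the rule and called lower passed this test, in which 43 of them had a *Padj*. The rule chose these genes with the same BOTH libraries, so their share cannot be set against that of all genes. The interferon-related lists held 12 of the 117, with a median of 0.70 over the 110 genes. *Psmb10* was 0.71 higher on the log2 scale in BOTH than in CHREBP (DESeq2 *Padj* = 0.019), *Slfn2* 0.53 (0.0225), *Mlkl* 0.63 (0.0203), *Grn* 0.38 (0.00882), *Myc* 0.22 (0.0409) and *Dusp5* 0.48 (0.000729), with the DESeq2 *Padj* in parentheses. *Ddit3* was 0.42 higher (0.0931), and 4 members of the stress response list were called. *Cxcl10* differed by 1.18 without passing the test (DESeq2 *Padj* = 0.526), *Rsad2* by 1.09 (0.682) and *Rrm2* by -0.21 (0.541). None of the 40 replication genes was called. *Txnip* was 0.28 higher than in CHREBP (DESeq2 *Padj* = 0.0853). The count of 117 rested on single libraries, being 182 without CHREBP replicate 1, 55, 49 and 52 without CHREBP replicates 2, 3 and 4, and 54 without BOTH replicate 2. The count of 21 was 10, 7 and 11 without CHREBP replicates 2, 3 and 4, and 64 without BOTH replicate 4. In the full set of libraries edgeR's quasi-likelihood test called 48 higher and 5 lower. Against BMAL1, which also received 100 nM and was in column 2 with CON, 882 genes (6.35%) were higher and 566 (4.08%) lower in BOTH. Of the replication list 8 members were lower and 1 was higher than in BMAL1.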

How the data were processed

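The values are raw counts of reads per gene, which the authors made from BRB-seq libraries and deposited as 1 table of 24 libraries, 55487 genes and 5 summary lines. The submitters' processing notes name STAR, HTSeq, featureCounts, DESeq2 and mm10. Versions, the annotation, whether strand was used and how molecular identifiers were treated are not given in the sources used here. Reads from near-identical or overlapping genes may therefore be shared. Of the 125 genes named by the rule given below, 27 overlap another gene on the same strand and 46 on the other strand.

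Groups were taken from the labels. The summary lines were dropped, and the 13883 genes whose counts over the 16 esiRNA libraries came to 25 or more were fitted with DESeq2 1.42.0 in R 4.3.3 by group. Contrasts used the Wald test at a Benjamini-Hochberg adjusted *P* (*Padj*) < 0.1, and 13344 genes received a *Padj* in BOTH against CON. Log2 fold changes were not shrunken. Normalized counts are counts divided by size factors. Library measures were compared by a two-sided exact permutation test. Replicates of a group differed by more than sampling noise, with chi-square per degree of freedom from 2.74 to 24.7 over 12 pairs. A total of 3 counts, taken as the detection floor, equals 0.267 to 0.461 CPM, which covers counting error only.

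The members and the 39 gene lists (34 pathways and 5 sets of markers of other cell types) were chosen with earlier results of these data known. Genes were named by rule. These were the targeted genes with 3 *Chrebp* targets, the 8 largest rises and 12 largest falls among called genes with a mean of at least 50 normalized counts and no overlap, the 8 largest further rises outside the lists, and up to 3 called members of each list with the lowest *Padj* and a mean of at least 20, or the member with the lowest unadjusted *P* where none was called. Other genes named to show the rest of a list were chosen after their values were seen. Some genes, among them members of the rule's choice, are not reported here. Alternatives were edgeR 4.0.16, the pair or all 24 libraries alone, other filters, TMM factors, size factors without 178 immune genes, the replicate number as a block, other thresholds and leaving out each library. The edgeR fit with the block was added after the data were seen. Promoters and their coordinates were taken from RefSeq (GRCm38.p6), and gene positions from GENCODE M21 on the same build, which held 55227 of the gene IDs.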

Additional observations from a re-analysis of the deposited data

Results flagged for a closer look

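In groups of 4 libraries, 14 of 270 values tested for a single library far from the other 3 passed Dixon's 95% limit. Chance flags about 1 in 20 such groups, and 14 of 270 is near that share, so the flags below are listed as values only. No explanation was tested.

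BOTH replicate 4 supplied 5 of the 14. In this library *Hook1*, the microtubule adaptor, was at 15.5 normalized counts against 53.7 to 58.5 in the other BOTH libraries, and *Elovl6*, the fatty acid elongase, was at 85.4 against 162 to 170. *Pnpla2*, the triglyceride lipase, was at 1315 against 850.1 to 896 and *Rpl24*, a ribosomal protein gene, at 1761 against 1621 to 1637. The summed level of the integrated stress response list was 4669 CPM against 4535 to 4540. The same library held the lowest mitochondrial share of counts.

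BOTH replicate 2 was high for *Per1*, at 100.3 against 59.6 to 62.9, and for *Egr1*, at 382 against 284 to 292, both immediate early genes. BOTH replicate 1 was low for *Myc*, at 3163 against 3693 to 3733, and high for *Psap*, at 1761 against 1543 to 1574.

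CON replicate 1 was apart for 4 genes. *Platr25* was at 97.3 against 64.3 to 67.1 in the other CON libraries, *G0s2*, the lipase inhibitor, at 629 against 534 to 546, *Gsta4*, the glutathione transferase, at 800.4 against 647 to 662, and *Ankrd1*, the YAP target, at 1462 against 1681 to 1703. In CON replicate 3, *Egr1* was at 234 against 191 to 198.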

How the results depend on the processing

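At 831 higher and 520 lower genes in BOTH against CON, edgeR called 766 and 419, the pair of groups alone 670 and 305, all 24 libraries 894 and 574, and *Padj* < 0.05 left 683 and 338. Leaving out one library gave 694 to 917 higher and 355 to 644 lower, both most without BOTH replicate 4. Size factors without the immune lists gave 849 and 505, so the balance of rises and falls moved little. For BOTH against CHREBP (117 and 21), edgeR gave 48 and 5, the pair alone 75 and 5, *Padj* < 0.05 67 and 10, and leaving out one library 49 to 182 and 7 to 64, where 182 was without CHREBP replicate 1 and 64 without BOTH replicate 4. For BOTH against BMAL1 (882 and 566) the pair alone gave 676 and 297, and leaving out one library 747 to 973 and 390 to 741. The causes of these differences were not tested, except that *Padj* < 0.05 is stricter by construction.

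Same-numbered libraries were checked for pairing by the correlation of their deviations from the group means, which was 0.0126 to 0.189 for CON with BOTH and -0.0979 to 0.267 for CHREBP with BOTH, so the numbers were not taken to pair the samples. With the replicate block, DESeq2 called 770 higher and 476 lower in BOTH against CON and 90 higher and 10 lower in BOTH against CHREBP, and edgeR with the block, added after the data were seen, 778 and 470, and 39 and 4. Under the block *Des*, at very low counts, turned to -0.28 (DESeq2) and -0.12 (edgeR).

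Of the 120 genes named by the rule that were called, 100 kept the call whichever of the 8 libraries was left out, and edgeR called 113. Values that changed sign had no call. *Pklr* (0.02) ran from -0.058 to 0.12 with one library left out, being -0.02, -0.058, -0.03 and -0.0047 without CON replicate 2, CON replicate 4, BOTH replicate 3 and BOTH replicate 4, and *Des* (0.01) from -0.66 to 0.46, with -0.27, -0.66 and -0.10 without CON replicate 2, BOTH replicate 3 and BOTH replicate 4. The difference in reads with no feature (0.0522 percentage points) ran from -0.186 to 0.269, with -0.0052 without CON replicate 3. The difference in reads not aligned (-1.46) ran from -1.69 to -1.24, and its unadjusted exact *P*, 0.0286 with all libraries, was 0.0571 to 0.0857 when a CON library was left out. The mitochondrial difference (-0.546) ran from -0.731 without BOTH replicate 1, where its unadjusted exact *P* was 0.0286, to -0.166 without BOTH replicate 4. At these depths a gene under the floor of 3 counts in a library was not detectable.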
